A study of Mus musculus with 10 samples.

Results

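Barcodes were selected from single-cell RNA counts of 10 mouse pituitary libraries by genes, other than hormone genes, that mark lactotropes, the cells of the anterior pituitary that make prolactin. A barcode entered the lactotrope gate when it held UMIs (counted molecules) of at least 2 of 7 genes, Hmcn1, Lrp1b, Edil3, Gria2, Ccdc148, Slit2 and Thsd7a. It also had to hold no UMI of 10 genes used to set other cells aside, which were Ghrhr and Pappa2 (somatotropes), Pcsk2 and Oacyl (melanotropes), Gnrhr (gonadotropes), Tbx19, Crhr1 and Avpr1b (corticotropes) and C1qa and C1qb (macrophages). Of 22325 barcodes kept after filtering, 1600 (7.17%) passed, with 2000446 UMIs among them. Prl, which encodes prolactin, took no part in the choice, so its level served as a partial check of the label. The gate genes were chosen by the study on these same libraries, so the check is not independent. By that check the label held unevenly, since most gated barcodes of the 3 male libraries and of the mt/hGRF library held more growth hormone than prolactin RNA.

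All mice were CD1, and all were wild type (WT) except those of 1 library. The 8-week WT females and males gave 3 libraries each. Replicate 1 of each sex was made on the 10X Genomics platform, and replicates 2 and 3 by Drop-seq, in which cells are caught with barcoded beads in droplets. The other 4 libraries were Drop-seq: 1 of 8-week mt/hGRF females, which carry a transgene for human growth hormone releasing hormone (GHRH) under a metallothionein promoter, 1 of a 13-week virgin female and 2 of 13-week lactating females. Several libraries pooled the cells of more than 1 mouse, so the spread between libraries is not the spread between mice, and the virgin and mt/hGRF groups had no replicate. Pituitaries were dissociated without enzymes. The gate held between 14 barcodes (male 2) and 491 barcodes (female 1), with a median of 693 to 1249 UMIs each. Libraries of the same platform shared 12 kept barcode sequences over 29 pairs of libraries, at most 5 in any pair.

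Prolactin drives milk production, and its release from lactotropes is held down by dopamine from the hypothalamus. Lactotropes and the growth hormone (GH) producing somatotropes both descend from cells that need the transcription factor POU1F1, and females have more prolactin and more lactotropes than males in rodents. Hormone genes are among the most abundant transcripts of the pituitary, so their RNA also leaks from broken cells into droplets that hold other cells.

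The gate genes are mostly genes of the cell surface and of the extracellular matrix. Gria2 encodes a subunit of AMPA-type glutamate receptors, Slit2 a guidance ligand for Robo receptors, Hmcn1 the matrix protein hemicentin, Lrp1b a receptor of the LDL receptor family, Edil3 a matrix protein that binds integrins, and Thsd7a a membrane protein with thrombospondin domains, while Ccdc148 is named only for its coiled coil. They are long genes. In GRCm38 they lie at chr1:150562524-150993435 (Hmcn1, minus strand), chr2:40595246-42653624 (Lrp1b, minus), chr2:58821070-59160683 (Ccdc148, minus), chr3:80681450-80802835 (Gria2, minus), chr5:47983138-48307733 (Slit2, plus), chr6:12311610-12749410 (Thsd7a, minus) and chr13:88821472-89323223 (Edil3, plus). Prl itself is at chr13:27057570-27065205 on the plus strand.

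Gria2 was seen in 1115 gated barcodes (69.7%), Hmcn1 in 773 (48.3%), Ccdc148 in 609 (38.1%), Lrp1b in 574 (35.9%), Thsd7a in 443 (27.7%), Edil3 in 331 (20.7%) and Slit2 in 277 (17.3%). Hmcn1 with Gria2 was the most frequent pair, in 495 barcodes (30.9%), followed by Gria2 with Ccdc148 in 379 (23.7%) and Lrp1b with Gria2 in 346 (21.6%). Most barcodes stood at the limit, with 1003 (62.7%) holding exactly 2 of the genes and 597 (37.3%) holding 3 or more. A further 711 barcodes held at least 2 of the genes but also a UMI of an excluded gene.

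On either side of the limit, Prl moved unevenly. In female 1, the 176 barcodes with a single gate gene and no excluded gene held 337 Prl UMIs per 10000 UMIs, the 171 with 2 gate genes held 271 and the 320 with 3 or more held 583. In male 1 the same 3 classes held 120, 243 and 226, and in the mt/hGRF library 664, 736 and 1396. The order ran the other way in the virgin (1344, 1091 and 622), lactating 2 (1313, 1269 and 704) and female 3 (347, 290 and 238). Gh, which encodes growth hormone, was 664, 244 and 207 in female 1 and 1630, 1022 and 867 in male 1, lower at each step, as it was in male 2, lactating 1 and the mt/hGRF library. In the virgin Gh was higher at each step (492, 603 and 820), and in female 2, female 3, male 3 and lactating 2 it was lowest at 2 gate genes. Barcodes with no gate gene, no excluded gene and no place in the comparison sets described below were rich in Prl in some libraries. They held 594 in female 1, 847 in female 2, 1155 in the virgin and 1509 and 1497 in the lactating females, more than the whole gate. In the males, female 3 and the mt/hGRF library they held 74.1 to 297, less than the gate.

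**Figure D1:**
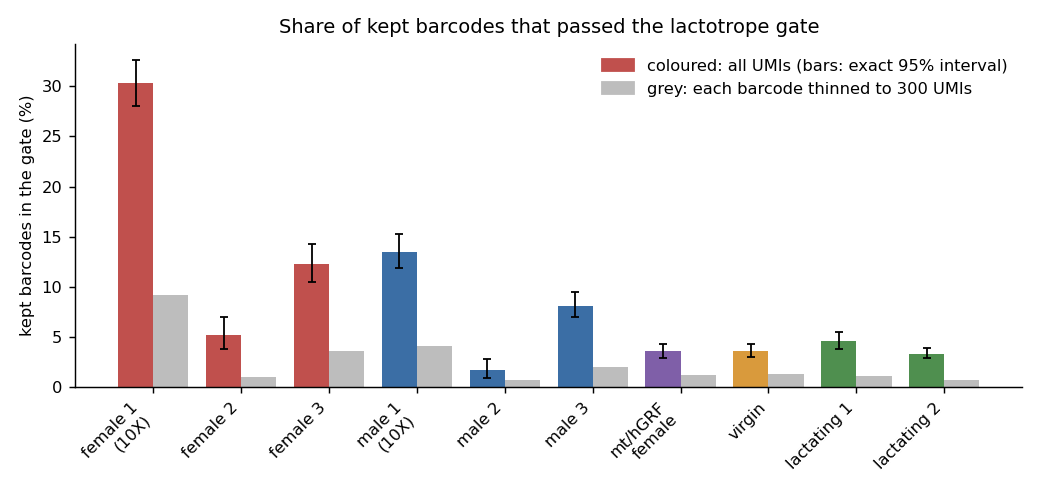
Share of kept barcodes in the lactotrope gate in each library, in percent, with 95% exact binomial intervals, for all UMIs (coloured) and after each barcode was thinned to 300 UMIs (grey). Within each replicate number the female share is above the male share, and the 10X Genomics libraries (replicate 1) are the highest of their sex.

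The share of kept barcodes that passed the gate was 30.3%, 5.20% and 12.3% in the WT females (replicates 1 to 3) and 13.5%, 1.68% and 8.14% in the WT males. The sexes overlapped as groups, since the 10X Genomics male was above both Drop-seq females. Within each replicate number the female was higher, by 2.25-fold, 3.09-fold and 1.51-fold. The means were 15.9% ± 12.9 and 7.77% ± 5.91 (SD, n = 3 each), and the exact permutation test (two-sided) gave p = 0.5, where 0.1 is the smallest p that 3 libraries against 3 allow. This test does not use the pairing by replicate number.

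The older and transgenic females had shares of 3.58% (mt/hGRF), 3.61% (virgin), and 4.59% and 3.35% (lactating), so the virgin share lay between those of the lactating libraries. Passing the gate needs 2 UMIs of scarce transcripts, and the share that passed varied with depth, unevenly between libraries. As a ratio, the rise was steepest in Drop-seq female 2, where 0.985% of barcodes in the lowest quartile of UMIs passed against 9.45% in the highest. In female 1 the 4 quartiles, from the lowest, passed at 16.0%, 42.5%, 45.2% and 17.5%, and in lactating 2 they ranged only from 2.81% to 3.96%. When every kept barcode with at least 300 UMIs was thinned to 300 UMIs, the shares fell to 9.20%, 0.991% and 3.59% in females and 4.11%, 0.721% and 2.01% in males, with female to male ratios of 2.24, 1.37 and 1.79. A share of barcodes also depends on how many other cells were caught, and on the platform.

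**Figure D2:**
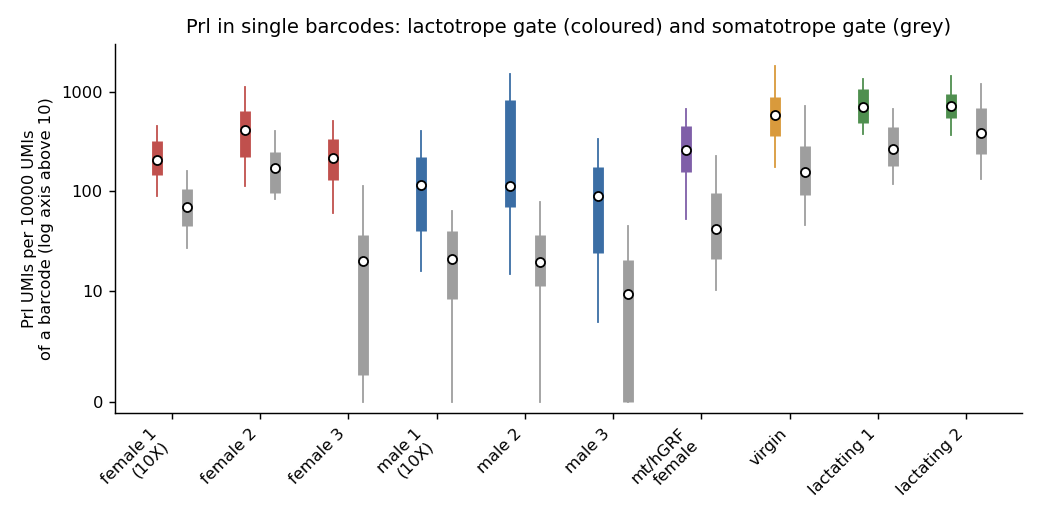
Prl per 10000 UMIs in single gated barcodes of each library (circle, median; thick bar, quartiles; thin line, 10th to 90th percentile). The 3 WT female medians lie above the 3 WT male medians, and the 13-week libraries have the highest medians.

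Prl was higher in the gate than in background barcodes of every library, by the narrowest ratio in the 13-week females. Summed over the gate, Prl made up 486, 715 and 271 per 10000 UMIs in the WT females and 234, 647 and 217 in the males. It was 993 in the mt/hGRF library, 977 in the virgin and 1047 and 1190 in the lactating females. For background, barcodes were taken with a UMI of the macrophage genes C1qa or C1qb and also of C1qc, Csf1r, Tyrobp or Ctss (873 in all). These C1q-positive barcodes, which should lack Prl, held 91.9, 77.6 and 18.0 in the WT females, 7.02, 25.3 and 3.50 in the males, 58.2 in the mt/hGRF library, 219 in the virgin and 394 and 384 in the lactating females. The gate was above this background in 10 of 10 libraries, although in the 13-week libraries Prl in the C1q-positive barcodes was itself plentiful. Free RNA and doublets were not told apart there, and the median C1q-positive barcode held less Prl than these sums, 82.7 in the virgin and 160 and 259 in the lactating females. Over all kept barcodes Prl stood at 483 in female 1, 690 in female 2, 939 in the virgin and 1042 and 1279 in the lactating females, so in these the gate was hardly richer in Prl than the library as a whole, or poorer.

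A parallel gate for somatotropes (865 barcodes, chosen by non-hormone genes of that cell type) gave a second point of reference. Its genes too were chosen with these libraries known, so hormone differences between the gates are not independent evidence of the labels. Prl in the somatotrope gate was 88.6, 330 and 95.2 in the WT females, 26.5, 31.2 and 22.6 in the males, 67.1 in the mt/hGRF library, 363 in the virgin and 322 and 686 in the lactating females. Prl was higher in the lactotrope gate of all 10 libraries, and in the 8 with at least 20 barcodes in both gates the log2 ratio averaged 2.27 ± 1.08 (SD, n = 8, exact sign-flip permutation test, two-sided, p = 0.00781, the smallest that 8 libraries allow). The ratio was smallest in lactating 2 (0.80 on the log2 scale) and largest in male 2 (4.37), which has 14 gated barcodes. Without the 5% of barcodes with the most UMIs the mean fell to 1.59, and with the C1q-positive level subtracted it was 3.21 over 6 libraries, since female 1 and lactating 1, whose somatotrope gate held less Prl than the C1q-positive barcodes, gave no ratio.

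Gh moved the other way. It was 219, 663 and 188 per 10000 UMIs in the lactotrope gate of the WT females, 940, 635 and 296 in the males, 286 in the mt/hGRF library, 656 in the virgin and 228 and 443 in the lactating females. In the somatotrope gate it lay between 1340 and 3095. Gh was lower in the lactotrope gate of all 10 libraries, with a mean log2 ratio of -2.38 ± 0.44 (SD, n = 8, exact sign-flip permutation test, two-sided, p = 0.00781, again the smallest possible), or -2.18 without the barcodes of most UMIs. It was still above the C1q-positive background in 9 of 10 libraries, the exception being lactating 1 (228 against 231), so gated barcodes held Gh RNA beyond what those barcodes carried.

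**Figure D3:**
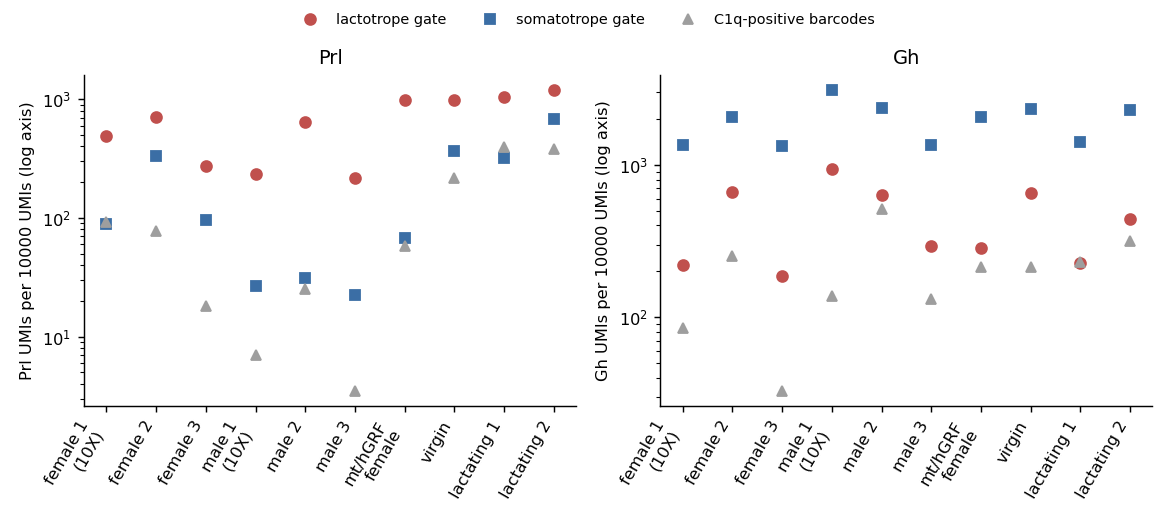
Prl (left) and Gh (right) UMIs per 10000 UMIs, log axes, summed over the lactotrope gate, the somatotrope gate and C1q-positive barcodes of each library. In every library Prl is higher and Gh lower in the lactotrope gate than in the somatotrope gate.

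Seen barcode by barcode, the sexes separated. The median gated barcode held 207, 408 and 216 Prl UMIs per 10000 in the WT females and 116, 113 and 89.2 in the males. No male median reached a female one, with means of 277 ± 114 and 106 ± 14.6 (SD, n = 3 each, exact permutation test, two-sided, p = 0.1, the smallest possible). The medians of the mt/hGRF, virgin and lactating libraries were 261, 586, and 699 and 715. The summed level, in which a few rich barcodes weigh heavily, overlapped between the sexes (exact permutation test, n = 3 each, p = 0.5). In male 2, where 3 of 14 barcodes (21.4%) exceeded 1000 Prl UMIs per 10000, the sum reached 647 while the median was 113.

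Gated barcodes with more Prl than Gh UMIs, counted without correction for gene length, made up 56.6%, 57.1% and 79.5% in the WT females and 6.91%, 21.4% and 20.3% in the males, again without overlap (exact permutation test, n = 3 each, p = 0.1, the smallest possible). In male 1, 92.6% of gated barcodes held more Gh than Prl, so by hormone RNA the male gate went against its label. The share was 39.4% in the mt/hGRF library, where 58.6% held more Gh than Prl, 74.0% in the virgin and 93.4% and 80.7% in the lactating females. In C1q-positive barcodes it was 22.5%, 10.5% and 8.11% in the WT females, 0% in each male library, 2.31% in the mt/hGRF library, 41.0% in the virgin, and 81.5% and 77.0% in the lactating females. The lactating values of the gate are therefore close to their own background.

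Markers of other cells, summed over the gate, differed by list and library. T and NK cell markers were at 0 in every library, macrophage markers summed to 0 to 0.47 per 10000 UMIs, endothelial markers to 0 to 0.41 and gonadotrope markers to 0.40 to 1.90. Thyrotrope markers summed to 0.26 to 2.90 and proliferation markers to 0 to 2.64. Markers of stem and supporting cells reached 12.1 in male 2, 10.4 in male 3, 8.27 in the mt/hGRF library and 7.61 in the virgin, against 0.91 to 3.39 in the WT females and 1.59 and 3.49 in the lactating ones. Over all kept barcodes they summed to 3.53 in male 2, 3.04 in male 3, 2.04 in the mt/hGRF library and 2.78 in the virgin. In the somatotrope gate they summed to 4.33, 0.822, 0.203 and 6.81 in the same order. The lactotrope gate held more of them than all kept barcodes did in every library but female 2 (0.91 against 2.07). Pituicyte markers, mostly Mest, reached 16.0 in female 3, 11.7 in male 3 and 8.82 in the mt/hGRF library, against 2.37 to 4.35 elsewhere, and stromal markers, mostly Col1a2, reached 14.2 and 11.1 in the lactating libraries and 8.06 in the virgin, against 1.54 to 7.60 elsewhere. Red blood cell genes summed to 326 in male 1, 114 in female 3 and 71.1 in lactating 2. Pomc, the precursor of ACTH, gave most of a corticotrope and melanotrope list that summed to 47.2 to 193. Doublets were not removed. Gated barcodes in the top 5% of UMIs of their library numbered 74, and they held 46.4% of the gate's UMIs in the mt/hGRF library, 49.3% in the virgin, 50.8% in male 2 and 7.69% to 28.4% elsewhere. Values without them are given beside the comparisons across genes and the Prl and Gh ratios of the gates. The interaction tests and the medians over single barcodes were not run without them, and the part of these cells in the results was otherwise not tested.

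Genes beyond the hormones were compared between the lactotrope and somatotrope gates. Summed counts of the 8 libraries with at least 20 barcodes in both gates were tested within each library by edgeR's quasi-likelihood test, with Benjamini-Hochberg adjusted p below 0.05 as the call and the genes of both gates left out. Of 2172 genes tested, 194 (8.93%) were called, 96 higher (4.42%) and 98 lower (4.51%) in the lactotrope gate. Without the 5% of barcodes with the most UMIs, 192 were called, 153 of them shared. With every gated barcode thinned to 300 UMIs, 43 were called, 38 of them shared.

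Of the 7 measured lineage transcription factors reported here, 4 rose (Six6, Lhx3, Thrb and Tle4), none fell and 3 were not called, where 4.42% of all genes rose and the median over all genes was -0.02 on the log2 scale. The study lists Six6, Thrb and Tle4 for its lactotrope cluster in these samples, so this count is not independent evidence. Six6, a homeobox factor of the developing pituitary and eye, was 2.42, 1.09 and 2.51 per 10000 UMIs in the lactotrope gate of the WT females, 2.60, 6.49 and 3.17 in males, 3.75 in the mt/hGRF library, 1.79 in the virgin and 2.48 and 1.12 in the lactating females. In the somatotrope gate it lay between 0.203 and 1.45. Female 2 was the single library in which Six6 was not higher, and the log2 difference was 2.29 ± 0.23 (SE, n = 8 libraries, edgeR adjusted p = 1.37e-07). The LIM homeobox factor Lhx3 rose by 1.68, the thyroid hormone receptor Thrb by 1.51 and the corepressor Tle4 by 1.08. Pou1f1, the factor common to both cell types, differed by 0.30 (edgeR adjusted p = 0.21), and Sox4, a transcription factor outside the list, rose by 1.72 and was higher in 10 of 10 libraries.

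The secreted ligand Angpt1, which activates the endothelial receptor Tie2, showed the largest rise. It was 1.55, 2.36 and 2.46 per 10000 UMIs in the lactotrope gate of WT females, 0.953, 4.76 and 3.70 in males, 1.64 in the mt/hGRF library, 3.52 in the virgin and 1.41 and 1.23 in lactating females. In the somatotrope gate it was at most 0.747 and at 0 in 4 libraries. Angpt1 was higher in the lactotrope gate of 10 of 10 libraries (log2 difference 2.92 ± 0.33, SE, edgeR adjusted p = 8.47e-07). Crhbp, the binding protein of corticotropin releasing hormone, rose by 2.63 ± 0.32 and was higher in all 7 female libraries, since both male gates held none. The sodium channel gene Scn3a (1.92), the glutathione transferase Gstm1 (2.06), Fam46a (1.78), the noncoding 5330416C01Rik (1.89) and the protein-coding 4930447C04Rik (1.83) complete the 10 largest rises with Prl (2.20). The span of 4930447C04Rik overlaps that of Six6 on the other strand of the same chromosome. Whether its rise is separate from that of Six6 was not tested.

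**Figure D4:**
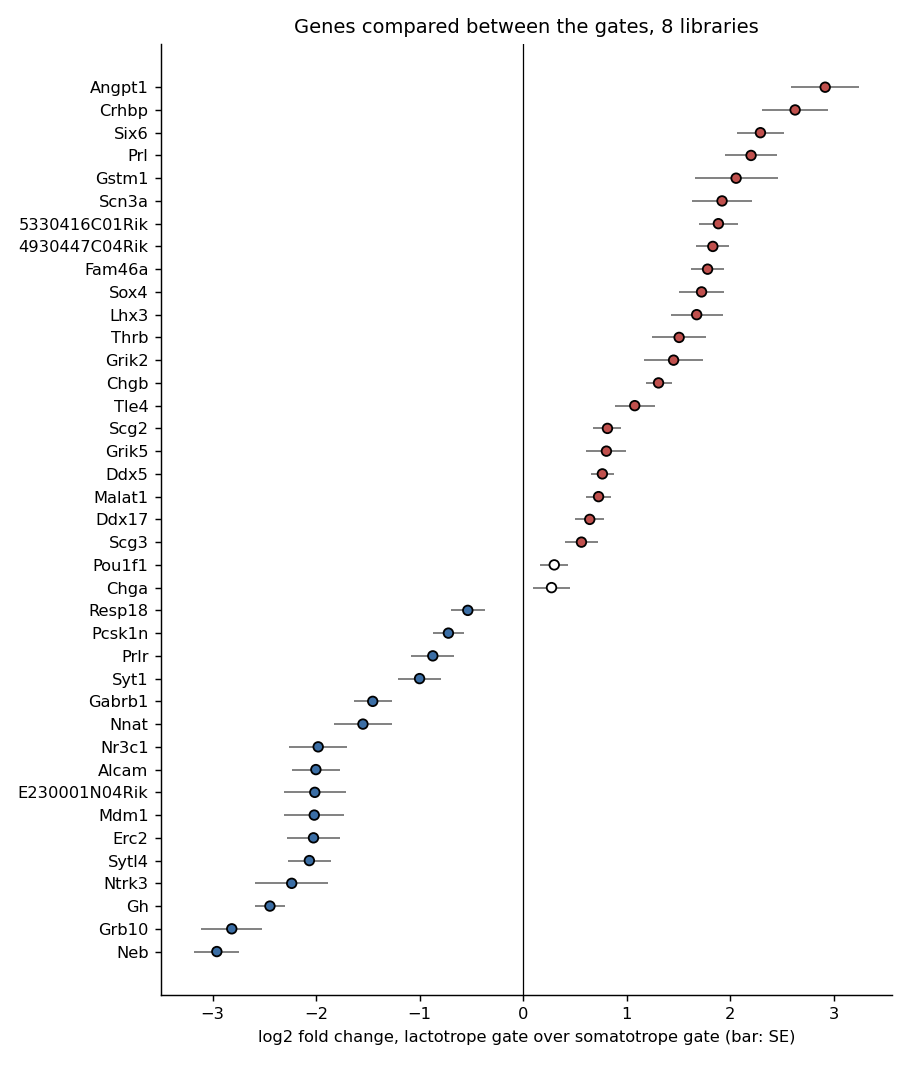
Log2 difference of lactotrope minus somatotrope gate for named genes, with the standard error, from summed counts of 8 libraries (edgeR). Coloured points passed the threshold and white points (Pou1f1 and Chga) did not; Angpt1 has the largest rise and Neb the largest fall.

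Of 14 measured granule and exocytosis genes, 3 rose, 4 fell and 7 were not called, where 4.42% of all genes rose and 4.51% fell. The 3 that rose, Chgb, Scg2 and Scg3, encode granins, the acidic proteins that pack secretory granules. Chgb (chromogranin B) was 16.5, 41.9 and 46.8 per 10000 UMIs in the lactotrope gate of WT females, 20.8, 55.0 and 41.2 in males, 59.0 in the mt/hGRF library, 77.2 in the virgin and 102 and 137 in lactating females, against 4.99 to 71.9 in the somatotrope gate. Chgb was higher in 10 of 10 libraries, by 1.31 on the log2 scale, and Scg2 rose by 0.81 and Scg3 by 0.56. The 4 that fell were Nnat (-1.55), the calcium sensor of exocytosis Syt1, the proSAAS gene Pcsk1n (-0.72) and Resp18 (-0.54). Resp18 was higher in the lactotrope gate in 0 of 10 libraries, Syt1 in 1, Pcsk1n in 2 and Nnat in 3. The granin Chga differed by 0.27 and did not pass. Of 17 genes of the ER secretory pathway, 1 fell, the signal peptidase subunit Spcs2 (-0.62), and none rose.

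Of 15 listed glutamate receptor genes other than the gate's Gria2, 2 were measured and both rose, the kainate receptor subunits Grik2 (1.45) and Grik5 (0.80). Of 6 measured channel and excitability genes, Scn3a rose and the GABA receptor subunit Gabrb1 fell (-1.45). Of 4 measured genes tied to the control of Prl, the RNA helicases Ddx5 (0.76) and Ddx17 (0.64) rose and the prolactin receptor Prlr fell (-0.87). Beside these counts, 4.42% of all genes rose and 4.51% fell. The study names Grik2, Grik5, Ddx5 and Ddx17 for its lactotrope cluster in these samples, so their rise is not independent evidence. Prlr was 0.555 to 2.35 per 10000 UMIs in the lactotrope gate and 0.971 to 3.92 in the somatotrope gate, and it was lower in 9 of 10 libraries, lactating 2 being the exception (2.35 against 1.45).

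The largest falls were of genes that the somatotrope gate held, Neb (-2.96), Grb10 (-2.82), Gh (-2.45), Ntrk3 (-2.24), Sytl4 (-2.07), Erc2 (-2.03), Mdm1 (-2.02), E230001N04Rik (-2.01), Alcam and Nr3c1 (-1.98). Neb encodes nebulin, Grb10 an adaptor that binds the insulin receptor, Ntrk3 the neurotrophin 3 receptor, Sytl4 the granule protein granuphilin, Alcam an adhesion molecule and Nr3c1 the glucocorticoid receptor. Neb was 0 to 1.23 per 10000 UMIs in the lactotrope gate and 0.425 to 7.55 in the somatotrope gate, lower in 10 of 10 libraries.

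Of 25 measured genes that the study lists for its lactotrope cluster, 21 rose and none fell, where 4.42% of all genes rose and 4.51% fell. Among those that rose were Angpt1, Chgb, Six6 and the splicing factors Srsf5, Luc7l3 and Son. That list was chosen on these samples and is not independent evidence. Malat1, a nuclear noncoding RNA, moved with these genes. It made up 25.8%, 11.6% and 9.92% of gate UMIs in the WT females, 21.1%, 5.98% and 10.1% in males, 11.7% in the mt/hGRF library, 10.7% in the virgin and 18.6% and 19.7% in lactating females, above the somatotrope gate in 10 of 10 libraries (log2 difference 0.73). Malat1 and Snhg11 were 2 of 7 measured nuclear RNAs to rise, against 4.42% of all genes. The stromal gene Col1a2 (0.61) and the pituicyte list's Mest (1.60) also rose, and neither immediate early gene measured was called. The part of nuclear RNA and of other cells in these differences was not tested.

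Males and females of 8 weeks were compared in the gate with 3 female and 2 male libraries, since the 14 barcodes of male 2 fell below the minimum of 20. Platform was a term of the fit. Of 5630 genes tested, 49 (0.87%) were called by edgeR's quasi-likelihood test (Benjamini-Hochberg adjusted), 31 higher (0.551%) and 18 lower (0.32%) in males. With the replicate number as a block, only replicates 1 and 3 of the 8-week WT libraries were left. Male 2 was below the minimum, so female 2 had no partner. The effects of the block and of the smaller set of libraries were not told apart. In that fit 11 genes were called, all among the 49. These were the sex-linked Xist, Tsix, Eif2s3y, Ddx3y, Uty and Kdm5d and the autosomal Crhbp, Rxfp1, Lcn2, Hspb1 and Snhg11. Without the barcodes of most UMIs 47 were called (34 shared), and with all barcodes thinned to 300 UMIs 14 (11 shared). The count was 26 without female 1, 12 without female 2, 47 without female 3, 23 without male 1 and 19 without male 3.

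The sex-linked genes matched the labels. Xist, the RNA that coats the inactive X chromosome, was 141, 38.8 and 94.8 per 10000 UMIs in the female gates and 0 in all 3 male gates, at least 1941-fold lower counting 3 UMIs over the tested male gates. The Y-linked Eif2s3y was 3.26, 2.60 and 5.23 in males and at most 0.0146 in females.

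Crhbp stood out among the autosomal genes. It lies at chr13:95431371-95444924 (minus strand, GRCm38) and encodes a secreted protein that binds corticotropin releasing hormone. It was 0.919, 2.54 and 1.46 per 10000 UMIs in the WT female gates and 0 in all 3 male gates, with 102 UMIs in females against 0 in the tested males, at least 17.2-fold lower (3 UMIs over the tested male gates as the floor, edgeR adjusted p = 1.97e-09). The other female gates held 2.26 (mt/hGRF), 2.49 (virgin) and 5.37 and 3.41 (lactating). Every female gate was above every male gate. Crhbp was also at 0 over all kept barcodes of the male libraries, and at 0.41 to 2.89 over those of the female libraries, so the sex difference was not limited to gated barcodes.

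**Figure D5:**
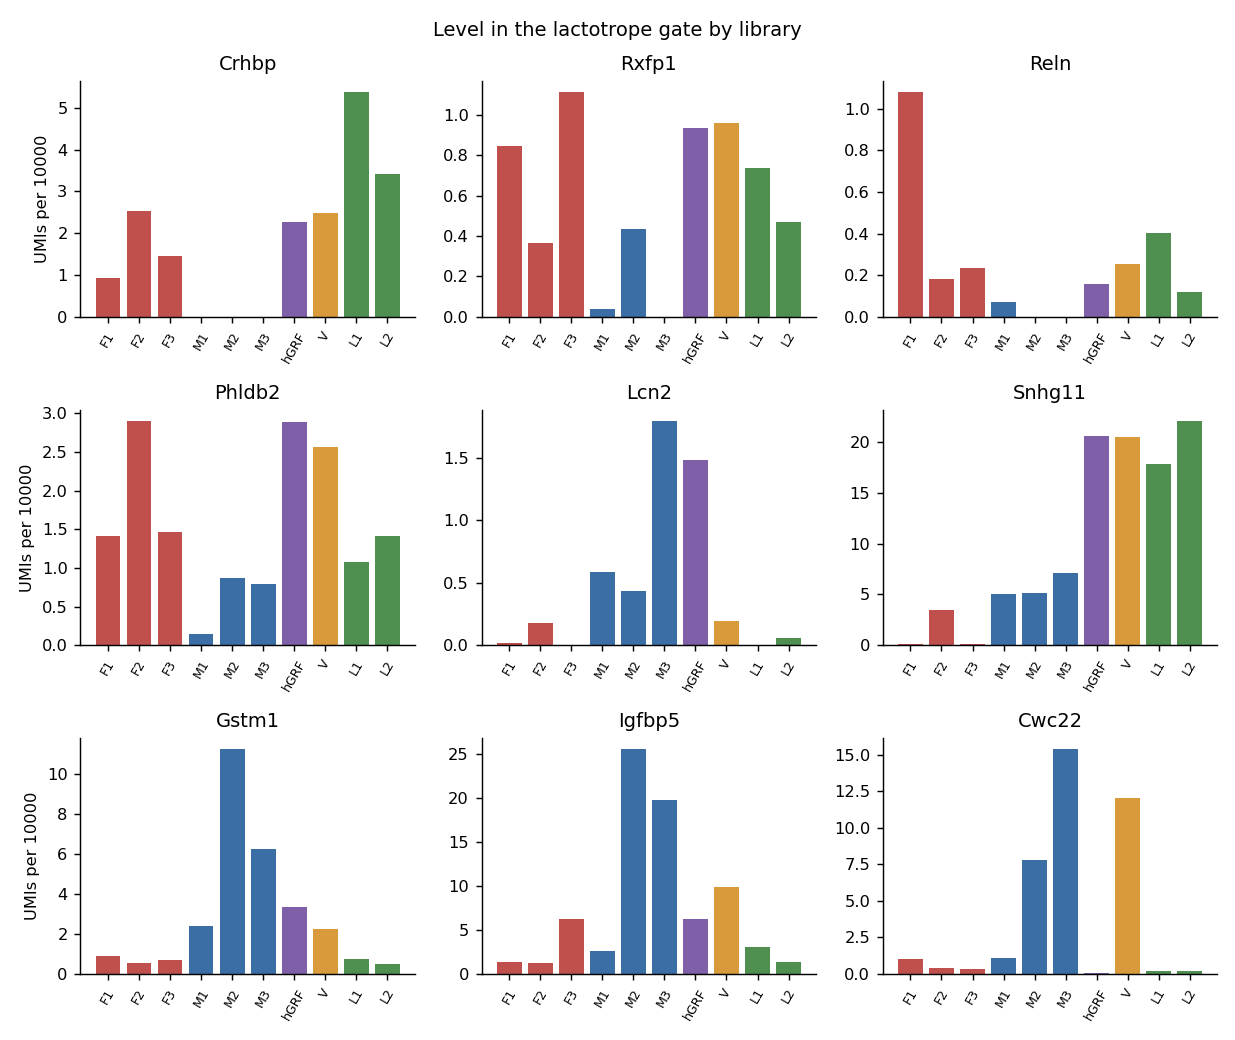
UMIs per 10000 UMIs in the lactotrope gate of each library for genes that differed between WT males and females (F and M with the replicate number, 8-week WT females and males; hGRF, mt/hGRF female; V, virgin; L, lactating). Crhbp is at 0 in the 3 male libraries and present in all 7 female ones.

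Rxfp1, a receptor for relaxin, was 0.846, 0.363 and 1.11 in the WT female gates and 0.0366 and 0 in the tested males, while male 2 held 0.433 from its few barcodes. The fold was 40.1 with a 95% counting interval of 6.98 to 1602, as males had 1 UMI. Reln, Rasgrf1, Pak7, Phldb2, Pcdh11x and the ER exit site gene Sec16b were also lower in males. Reln, the secreted matrix protein reelin, had 79 UMIs in females against 2 in males, and Pak7 had 54 against 0 (at least 9.13-fold). Phldb2 fell by 2.03, the protocadherin Pcdh11x by 1.91 on the log2 scale. Galanin (Gal), a neuropeptide that lactotropes also make, was 0.584, 0.544 and 0 in females and 0, 0.433 and 0.0528 in males, so the groups overlapped, although edgeR called it (adjusted p = 0.026).

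Lcn2, which encodes a protein that binds iron-carrying siderophores, was 0.0146, 0.181 and 0 in the WT female gates and 0.586, 0.433 and 1.80 in males, without overlap. Lcn2 was also higher in the mt/hGRF females than in the WT females, by 4.98 on the log2 scale against 5.01 in males. Its rise was thus not particular to males. Snhg11, a noncoding RNA, was 0.117, 3.45 and 0.175 in females and 5.02, 5.19 and 7.08 in males, and the 4 other libraries, all female, held 17.9 to 22.1. Snhg11 thus did not follow sex across the series. Cwc22, a splicing factor, was 1.02, 0.363 and 0.351 in females and 1.10, 7.79 and 15.4 in males, with 12.0 in the virgin and at most 0.201 in the mt/hGRF and lactating gates. Over all kept barcodes it was likewise highest in male 3, the virgin and male 2 (0.764, 0.263 and 0.27 in females, 0.875, 5.40 and 13.6 in males, 10.4 in the virgin), so its difference was not limited to gated barcodes.

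Igfbp5 (1.31, 1.27 and 6.26 in females; 2.60, 25.5 and 19.8 in males), Gstm1 (0.905, 0.544 and 0.702; 2.38, 11.3 and 6.24), Aldoc (0.496, 0 and 0.409; 1.03, 2.60 and 2.22), Hspb1, Zfp36l1 and Fstl1 were also called higher in males. Hspb1 and Zfp36l1 were higher in the mt/hGRF females than in the WT females too, by 3.68 and 4.12 on the log2 scale, against 3.63 and 3.46 in males. Aldoc was higher in that female library as well. Aldoc is a member of the stem and supporting cell list, 1 of 6 measured, where 0.551% of all genes rose. The list's summed level was 1.49, 0.91 and 3.39 in females and 2.24, 12.1 and 10.4 in males. The hemoglobin gene Hba-a2 was called from male 1 alone (5.50 against at most 0.306 in females and 0 in the other males), the library rich in red blood cell RNA. Whether these cells account for part of the called genes was not tested.

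No hormone gene of 6 measured passed. Prl differed by -1.18 ± 0.34 on the log2 scale (SE, males against females, edgeR adjusted p = 0.072), which became -0.67 without female 2 (edgeR adjusted p = 0.449) and -1.44 without female 3 (edgeR adjusted p = 0.00177), and Gh by 0.61 ± 0.44 (edgeR adjusted p = 0.96). None was called of 11 lineage factors, 5 glutamate receptors, 12 excitability genes, 18 granule genes or 24 ER genes, 0 at this threshold while 390 of all genes tested had an unadjusted p below 0.05 and DESeq2 called 8 in all. Of the study's lactotrope list, Erdr1 and Pcdh11x fell and 28 of 30 were not called. Of 8 immediate early genes, Btg2 rose. Beside these counts, 0.551% of all genes rose and 0.32% fell.

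Lactating and virgin females of 13 weeks were compared with 2 libraries against 1, with the spread taken from all groups. Lactation and the single virgin library cannot be told apart. Of 5630 genes, 19 (0.337%) were called by edgeR's quasi-likelihood test (Benjamini-Hochberg adjusted), 4 higher (0.071%) and 15 lower (0.266%) in lactation, and DESeq2 called none. Prl was 977 per 10000 UMIs in the virgin gate and 1047 and 1190 in the lactating gates, a log2 difference of 0.41 ± 0.44 (SE, edgeR adjusted p = 0.87). Chgb was 77.2 against 102 and 137 (0.85 ± 0.49, edgeR adjusted p = 0.71) and Prlr 0.959 against 1.41 and 2.35 (1.20 ± 0.53, edgeR adjusted p = 0.52). None of these differences passed the test, and the order of 2 libraries against 1 carries little weight.

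The 4 genes higher in lactation were Chrna6, Gpn3, Cnot8 and Ttyh1. Chrna6, a nicotinic acetylcholine receptor subunit, was 0 in the virgin gate and 0.873 and 0.940 in the lactating gates, at least 4.74-fold higher (3 UMIs in the virgin gate as the floor), with 0.117 to 1.45 in the 8-week WT females. Ttyh1, a membrane protein of the tweety family, was 1.15 in the virgin and 4.10 and 4.88 in lactation (log2 difference 2.17 ± 0.49, SE). Cwc22 fell by 5.75, the library-wide gene described above. The other falls included Cd74, H2-K1, B2m, Mia, Igfbp5, Tm4sf1, Ly6h, Nfib, Ahnak, Pla2g7 and Rps10.

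The virgin gate was the one whose deepest barcodes held 49.3% of UMIs and whose stem and supporting cell markers summed to 7.61, against 3.49 and 1.59 in lactation. Without the 5% of barcodes with the most UMIs in every library, 5 genes were called, of which Cwc22 and Ttyh1 were among the 19. With barcodes thinned to 300 UMIs 3 were called, Cwc22 among them, and without either lactating library only Cwc22. Of the 30 genes of the study's lactotrope list none was called (list median 0.33 against 0.02 over all genes), nor any of 24 ER genes (median -0.45), 11 lineage factors, 11 genes of Prl control, 12 excitability genes or 5 glutamate receptors. Of 18 granule genes 1 fell, Pcsk1n, where 0.266% of all genes fell. Over all genes, 464 had an unadjusted p below 0.05.

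The mt/hGRF gate (99 barcodes, 1 library) was compared with the 3 WT female gates. The spread of this single library was assumed to be that of the other groups, and the transgene and the library cannot be told apart. Of 5630 genes, 200 (3.55%) were called by edgeR's quasi-likelihood test (Benjamini-Hochberg adjusted), 179 higher (3.18%) and 21 lower (0.373%) in the transgenic library. Without the barcodes of most UMIs the count was 6, of which Snhg11, Ttyh1, Hba-a1 and Gm42418 were among the 200, and with barcodes thinned to 300 UMIs it was 4, Snhg11, Itm2c, P3h3 and Sec62. These genes were named after their values were seen. Mitochondrial transcripts made up 3.8% of UMIs in the mt/hGRF gate against 1.91%, 1.69% and 1.18% in the WT females, and mt-Cytb, mt-Nd1, mt-Nd2 and mt-Nd4 were among the 200. In the other WT gates the share was 1.92% in male 3 and 3.09% to 3.88% in the rest. This level was thus not particular to the transgenic library. Of 6 measured markers of stem and supporting cells 1 rose, Aldoc, with a list median of 1.17 on the log2 scale against -0.13 over all genes and a summed level of 8.27 against 0.91 to 3.39 per 10000 UMIs. The part of either in the calls was not tested. In this library 11 barcodes held 46.4% of the gate's UMIs. Most of the 200 calls were not made when the 5% of barcodes with the most UMIs were left out of every library. Of the 200, 171 were then still tested. Leaving out those 11 barcodes alone was not tested. The count was 114 without female 2 and 88 without female 3.

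Snhg11 was 20.6 per 10000 UMIs in the mt/hGRF gate and 0.117, 3.45 and 0.175 in the WT females (log2 difference 4.68 ± 0.56, SE, edgeR adjusted p = 8.05e-10). The WT virgin and lactating gates held 17.9 to 22.1, about the level of the mt/hGRF gate, so this level was not particular to the transgenic library. Galanin (Gal) was 3.28 against 0.584, 0.544 and 0 (4.33 ± 0.71, edgeR adjusted p = 1.14e-05). Over all kept barcodes the same library held 1.85 Gal against 0.298 to 1.34. B2m, the light chain of MHC class I, was 9.05 against 0.642, 0.907 and 0.292, and the MHC class II genes H2-Ab1, H2-Aa and Cd74 rose with it, together with Lcn2, Dbi and Zfp36l1. Class II genes mark antigen-presenting cells, and their part here was not tested.

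Prl was 993 in the mt/hGRF gate and 486, 715 and 271 in the WT females, a log2 difference of 1.18 ± 0.40 (SE, edgeR adjusted p = 0.085) that became 0.03 without the deepest barcodes and 1.95 without female 2 (edgeR adjusted p = 0.0177). Of 24 ER genes 4 rose, Manf, Sec61b, Spcs1 and Ssr2, and 1 fell, the chaperone gene Hyou1, which had no UMI in the mt/hGRF gate (at least 3.05-fold lower, 3 UMIs there as the floor), where 3.18% of all genes rose and 0.373% fell. None of these 5 was called without the deepest barcodes, and Manf did not keep its direction. Of 18 granule genes Resp18 and Scg5 rose and Nnat was called lower, although its level in the mt/hGRF gate (5.54) was within the range of the WT females, and none of these 3 was called without the deepest barcodes. Cacna2d1, a calcium channel subunit, and Erdr1 fell as well. The largest falls were of scarce genes at 0 in this library, such as Rapgef3 (at least 5.48-fold), Arih1 (at least 4.83-fold) and Clmn (at least 2.20-fold).

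Whether the lactotrope gate responded differently from the somatotrope gate was tested as an interaction of gate and condition, with each library as its own block, over 2172 genes. For sex, edgeR called 0 genes (0%), with 96 below an unadjusted p of 0.05. For lactation it called 0 (0%), with 91 below. For mt/hGRF it called 1 (0.046%), the hemoglobin gene Hba-a1, with 116 below. If no gene differed, a share of about 0.05 of the tests would still fall below that p. DESeq2 was not run on the interactions. Crhbp, Snhg11 and the other genes above are thus not shown to differ between the gates in their response.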

How the data were processed

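Single-cell RNA counts of mouse pituitary were read from 10 libraries. The deposited counts are UMIs per gene and barcode, not normalized. Per the authors, the Drop-seq values come from uniquely mapped exonic reads (mm10, Gencode vM13), after UMIs 1 edit apart had been merged, and Cell Ranger made the other tables (version not given in the sources used here). Barcodes were kept with at least 300 UMIs and 100 to 4000 genes (Drop-seq) or more than 200 and fewer than 3000 genes (10X Genomics), a mitochondrial share below 0.1 and a ribosomal pseudogene share below 0.01. Doublets were not called. The members and gene lists were chosen with earlier results of these data known. Levels are UMIs per 10000 UMIs of the gate.

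UMIs were summed over gated barcodes of each library with at least 20 and compared by the quasi-likelihood test of edgeR 4.0.16 after TMM scaling and filterByExpr (group and platform as terms, two-sided p adjusted by Benjamini-Hochberg). DESeq2 1.42.0 was run as an alternative. The test was checked on simulated counts with 4-fold changes. It found 67.5% of the changed genes for sex, 39.5% for lactation, 35.5% for mt/hGRF and 100% between the gates. In the interactions it found 84% (sex), 49% (lactation) and 21% (mt/hGRF). A gene that was not called may therefore still differ. Female and male libraries of replicates 2 and 3 share a number in their sample titles and those of replicate 1 share the platform. Libraries with the same replicate number, whose deviations from the mean of their sex correlated (r = 0.655, 0.156 and 0.465 over all 3 numbers, and 0.11 for the Drop-seq libraries alone), were taken as pairs, and a block by replicate number was an alternative. Named genes are those of the gates and lists and the 10 largest rises and falls of each comparison, for sex only where tested libraries of a platform did not overlap. Other alternatives changed the filter, the number of gate genes, the libraries and the depth. Intervals cover counting error only. Coordinates are from GENCODE vM21. A member of the list of lineage factors is not reported here.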

Additional observations from a re-analysis of the deposited data

Results flagged for a closer look

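The response to the mt/hGRF transgene of 1 gene differed between the gates in the interaction test, the hemoglobin gene Hba-a1, with a difference of -5.10 on the log2 scale (lactotrope minus somatotrope gate, edgeR adjusted p = 0.00335). In the lactotrope gate Hba-a1 was 6.23, 1.81 and 35.5 per 10000 UMIs in the WT females and 1.33 in the mt/hGRF library, and in the somatotrope gate it was 4.92, 0 and 0.83 against 2.57. Female 2 had 16 barcodes in the somatotrope gate, below the minimum of 20, and was not in the test, so 2 WT female libraries were set against 1. Female 3, whose gate was rich in red blood cell RNA (114 per 10000 UMIs over the list), carried part of the value. Without female 3 the difference kept its direction but shrank to -2.90. That fit left 1 WT female library against 1, so it cannot show that the difference holds without female 3. The groups held at most 3 libraries, so single libraries could not be tested for standing apart.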

How the results depend on the processing

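The number of genes called moved with the settings. For sex (49 calls) it was 29 with Drop-seq alone, 8 by DESeq2, 11 with the sexes alone in the fit and 14 after thinning. It was 11 with the replicate block (replicates 1 and 3 only) and 22 with the replicate block and no minimum of barcodes. Leaving out single libraries gave 12 to 47. For lactation (19) it was 0 by DESeq2, 8 with 1 gate gene enough, 5 without the deepest barcodes, 3 after thinning and 42 with its own groups alone; leaving out a lactating library gave 1. For mt/hGRF (200) it was 56 by DESeq2, 82 with 1 gate gene enough, 6 without the deepest barcodes, 4 after thinning and 87 with its own groups alone; leaving out single libraries gave 88 to 150. For the gates (194) it was 556 with no filter on low counts, 112 with 3 gate genes required, 123 with Drop-seq alone, 123 by DESeq2 and 43 after thinning; leaving out single libraries gave 141 to 184. Thinning also left fewer genes to test. The interaction with sex (0) gave 1 with no filter, 13 with 3 gate genes and 4 with Drop-seq alone, and 1 to 4 without single libraries; that with lactation gave 0 to 8 without single libraries; that with mt/hGRF (1) gave 3, 7 and 4 in the same order, and 0 to 3. The Prl ratio was 3.17 and the Gh ratio -2.50 with 3 gate genes required (exact p = 0.0625 each, the smallest that 5 libraries allow), and without single libraries they were 2.04 to 2.49 and -2.48 to -2.32. The male minus female share was -13.5 to -0.995 percentage points without single libraries. Without the deepest barcodes, 15 of the 171 mt/hGRF calls still tested and 3 of 17 lactation calls changed sign. Of named genes, 7 values did not keep their direction. Hba-a2 in males was 0 without female 1 (within 0 to 4.15 over single libraries left out), so it had no direction there. The rest reversed: Ahnak in lactation without the deepest barcodes (0.091), and for mt/hGRF Hspb1 with 3 gate genes (-0.20), Hba-a1 with 1 gate gene (1.67) and without female 3 (1.82, within -3.61 to 1.82), and Manf without the deepest barcodes (-0.13) and after thinning (-0.55). The cause was not tested. Prl in males was called with no filter (edgeR adjusted p = 0.003) and without female 3 (0.00177), while its difference of -1.18 shrank to -0.22 with 3 gate genes, -0.67 without female 2 (0.449), -0.66 with no minimum of barcodes, -0.67 with the replicate block and -0.83 without the deepest barcodes, and the replicate block changed no call of a hormone gene. With 3 gate genes, lactation could not be fitted, since the 13-week libraries held 15 (virgin), 14 and 19 barcodes, all below the minimum of 20.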
